A study of Mus musculus with 12 samples.

Results

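The genes described here are the 2 STAT5 genes, Stat5a and Stat5b, and 6 genes known as STAT5 targets, namely the SOCS family feedback inhibitors Cish, Socs1 and Socs2, the kinases Pim1 and Pim2, and the repressor Bcl6. They were taken by name and are 8 of the 12199 genes in the count table. All 8 passed the filter on low counts. RNA was sequenced from the BM of C57BL/6 mice of 4 genotypes. WT mice were labelled wild type. DF mice carried 1 floxed Dnmt3a allele with the MxCre transgene and 1 Flt3 ITD allele, which duplicates a stretch inside a receptor tyrosine kinase. TF mice had 1 Tet2 null allele and 1 Flt3 ITD allele, with no MxCre in their label, and TFD mice combined Tet2+/- with the Flt3 ITD allele, the floxed Dnmt3a allele and MxCre. All animals, WT included, had been given poly(I:C), an interferon inducer that switches on MxCre in interferon-responsive cells, as young adults some weeks before analysis. There were 3 WT, 3 DF, 3 TF and 2 TFD libraries, and TFD replicate 3 was not analysed here. No label says whether the numbered libraries of a genotype came from separate animals, so the p values measure the spread between these libraries.

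STAT5A and STAT5B are transcription factors that wait in the cytoplasm until a Janus kinase or a receptor tyrosine kinase phosphorylates them. They then pair, enter the nucleus and bind a palindromic DNA element. In blood cells they carry signals of IL-3, GM-CSF, IL-7, erythropoietin and thrombopoietin, and the FLT3 receptor with an internal tandem duplication is known for phosphorylating STAT5 without its ligand. CIS (the product of Cish), SOCS1 and SOCS2 are induced by this signal and act back on receptors and kinases to limit it. PIM1 and PIM2 are serine and threonine kinases that favour survival and growth, and BCL6 is a zinc finger repressor needed in germinal centre B cells, whose transcription STAT5 is known to repress. RNA levels do not report phosphorylation, so the measurements below are of transcripts only.

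Library totals ranged from 8274153 to 15900904 counts over the table. Levels are given as CPM, the counts relative to library size corrected with TMM factors, differences as log2 fold changes from edgeR's quasi-likelihood fit to all 4 genotypes, and the word called marks adjusted p values under 0.05 over the 12175 genes tested. The whole-gene counts of Tet2 and Dnmt3a were not called lower where their alleles were targeted. Tet2 was at 136 to 205 CPM in TF and 163 to 209 CPM in TFD against 148 to 169 CPM in WT. Dnmt3a was at 38.0 to 46.4 CPM in DF against 30.9 to 57.8 CPM in WT. Its log2 fold change was −0.15 in DF (adjusted p = 0.578) and 0.29 in TFD (adjusted p = 0.382). Such sums over all exons do not separate the alleles and so check no label. The source label names mononuclear cells, but the 10 late neutrophil markers summed to 23240 to 83116 CPM over the 11 libraries. The 2 TFD libraries differed most among pairs of 1 genotype, with a chi-square of their counts per degree of freedom of 64.8, where the other pairs had 10.2 to 31.6, and with late neutrophil sums of 23240 and 46651 CPM. Xist, the X-inactivation RNA, had 30976 to 42152 counts in WT replicate 3, TF replicate 3 and TFD replicate 2, and 18 to 538 elsewhere. For Ddx3y, found on the Y chromosome, these 3 libraries had 3, 12 and 4 counts, and the others 1040 to 2132. They thus read as female and the others as male. No DF library was among them, and the 2 TFD libraries were 1 of each. Beyond fits with an Xist term or without single libraries, the part of this imbalance was not tested. The cell type markers moved with genotype. The 7 monocyte markers summed to 1761 to 1893 CPM in WT and to 5000 to 6445 CPM in the mutants, with 7, 7 and 6 of them called higher in DF, TF and TFD. The 10 B cell markers summed to 515 to 611 CPM in WT and to 16.2 to 122 CPM in the mutants, with 10, 9 and 10 called lower and Pax5, Vpreb1, Igll1 and Blk at 0 counts in at least 1 mutant library. The 7 erythroid markers tested summed to 742 to 919 CPM in WT, 53.1 to 84.0 CPM in DF, 223 to 814 CPM in TF and 199 to 331 CPM in TFD. TF replicate 3 stood nearest to WT in the B cell (122 CPM), erythroid (814 CPM) and T cell (55.5 CPM) sums. The part of these cell types in the results below was not tested. In whole BM, fewer cells of a type and less RNA per cell cannot be told apart.

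The 8 genes did not move as 1 block. Socs2 and Cish rose in each mutant genotype, Stat5a, Stat5b and Pim1 rose by a smaller amount, and Pim2, Socs1 and Bcl6 were lower where they were called. In DF, 5 of the 8 genes were called higher, where 21.0% of all tested genes were, and 1 was called lower, where 16.6% were. In TF, again 5 were higher and 1 was lower, against 19.0% and 15.6% of all tested genes. In TFD, 5 were higher and 2 were lower, against 14.7% and 11.6%. The same 5 genes, Socs2, Cish, Stat5a, Stat5b and Pim1, were called higher in each comparison, which share the WT libraries. The gene called lower was Pim2 in DF and Bcl6 in TF, and in TFD Pim2 and Socs1 were called lower. The median log2 fold change of the 8 genes was 0.29 in DF, 0.38 in TF and 0.36 in TFD, beside 0.05, 0.02 and 0.01 over all genes tested. Every mutant library lay above every WT library for 5 of the 8 genes, beside 16.0% of all genes, and below every WT library for 1 of them, Pim2, beside 11.8%. When library totals replaced the TMM factors, the DF comparison turned from 2560 genes higher and 2023 lower to 1926 higher and 2622 lower, and 3 of the 8 genes were called there, Socs2, Cish and Pim2.

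**Figure D1:**
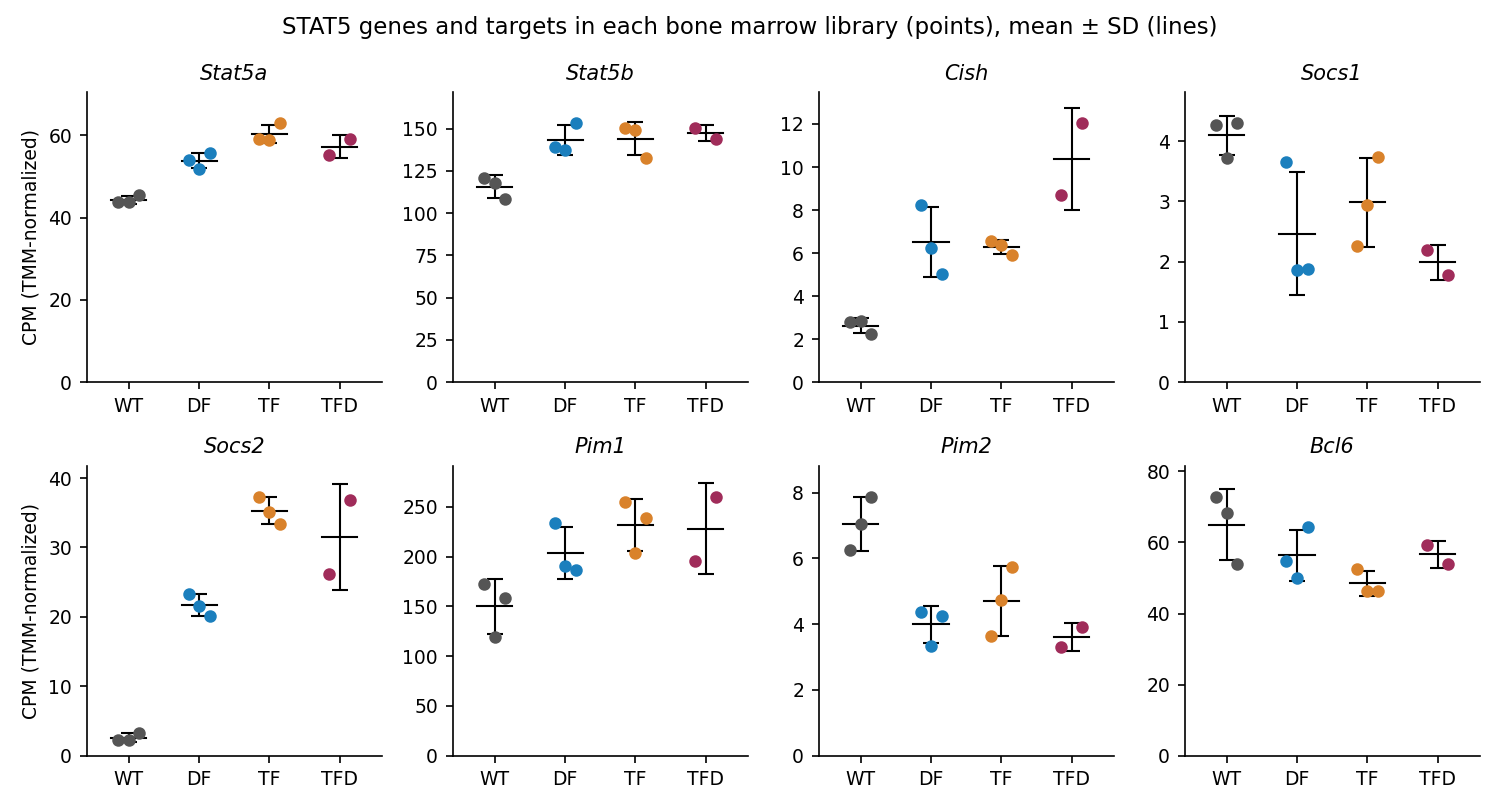
CPM (y axis, from 0) of each of the 8 genes in each library (points) by genotype (x axis), with the mean and SD of the 3 WT, 3 DF, 3 TF and 2 TFD libraries as lines. Socs2 lay between 2.22 and 3.31 CPM in WT and between 20.2 and 37.3 CPM in the mutant libraries. For Socs1 and Bcl6 the WT and mutant ranges overlapped, through TF replicate 3 for Socs1 and through DF and TFD libraries for Bcl6.

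**Figure D2:**
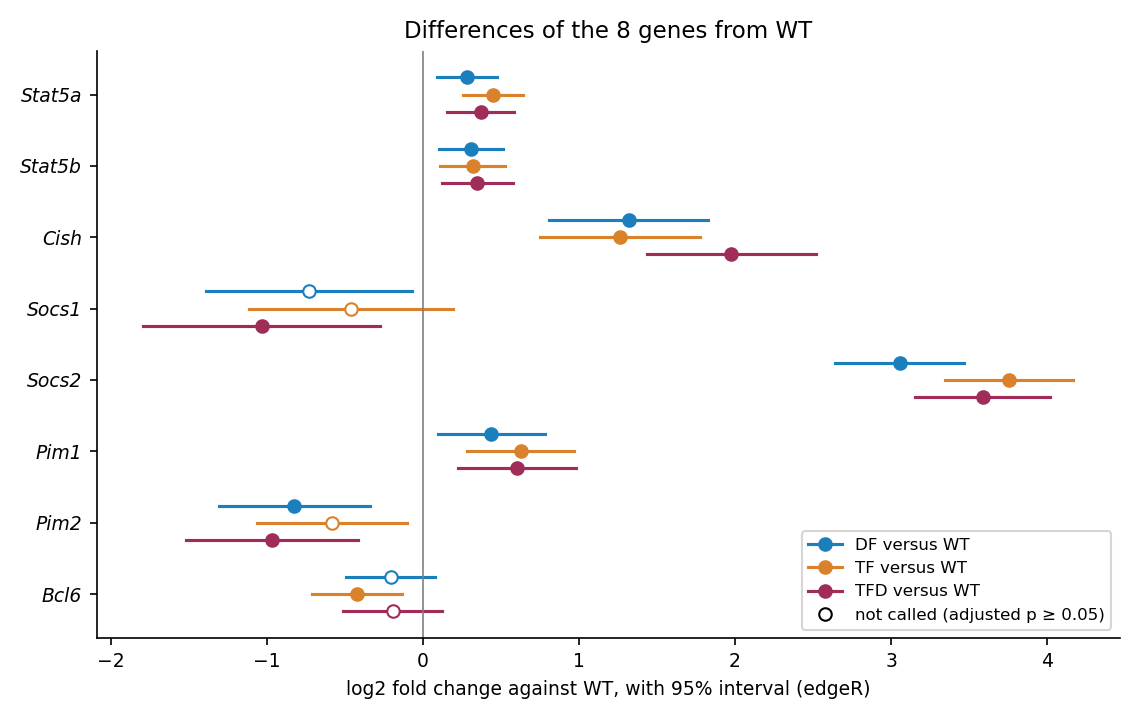
Log2 fold change against WT (x axis) of the 8 genes (y axis) in DF, TF and TFD, with the 95% interval as a line and an open point where the gene was not called. The interval of Socs2 began at 2.64 or above in each comparison, and the points of Socs1, Pim2 and Bcl6 all lay below 0.

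Stat5a and Stat5b lie next to each other on chromosome 11 of mm10, Stat5a at chr11:100859351-100885169 on the plus strand and Stat5b at chr11:100780731-100850585 on the minus strand, with 8765 bases between their starts. In the deposited coordinates the 3′ end of Stat3, on the other strand, lies 1640 bases beyond Stat5a. The GENCODE annotation has a Stat3 transcript that overlaps Stat5a by 72 bases, or 0.28% of the Stat5a span. The level of Stat5a was 43.7, 43.7 and 45.5 CPM in the WT libraries, 54.1, 51.8 and 55.6 CPM in DF, 59.1, 58.9 and 62.9 CPM in TF, and 55.3 and 59.2 CPM in TFD. The lowest mutant library, DF replicate 2, lay above the highest WT library. Against WT, Stat5a gained 0.28 on the log2 scale (SE 0.09 and adjusted p = 0.0256) in DF, 0.45 (SE 0.09 and adjusted p = 0.00228) in TF and 0.37 (SE 0.10 and adjusted p = 0.0149) in TFD. The mean levels ran from TF over TFD and DF to WT, and the neighbours TF and TFD (adjusted p = 0.880) and TFD and DF (adjusted p = 0.717) were not called apart. The DF call was lost without WT replicate 1, 2 or 3 or DF replicate 1 or 3 (adjusted p 0.0659 to 0.0916) and, with all libraries, by DESeq2 (adjusted p = 0.0614), with library totals (0.113) or RLE factors (0.0548) and with the 2 genotypes alone (0.0821). The TFD call was lost without TFD replicate 2 (adjusted p = 0.0773) and with the 2 genotypes alone (adjusted p = 0.0913).

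Stat5b was the more abundant of the pair. It was at 121, 118 and 108 CPM in WT, 139, 137 and 153 CPM in DF, 150.3, 149 and 133 CPM in TF, and 150.5 and 144 CPM in TFD. No mutant library reached down to the WT range. The log2 fold change of Stat5b against WT was 0.31 in DF (SE 0.10 and adjusted p = 0.0231), 0.32 in TF (SE 0.10 and adjusted p = 0.0216) and 0.35 in TFD (SE 0.11 and adjusted p = 0.0281). The DF call was lost without WT replicate 3, DF replicate 1 or DF replicate 3 (adjusted p 0.0542 to 0.132), with library totals (0.0829) and with the 2 genotypes alone (0.0595). In TF the call was lost without WT replicate 3, TF replicate 1 or TF replicate 2 (adjusted p 0.0771 to 0.0886), and in TFD without WT replicate 2 or 3 or either TFD library (adjusted p 0.0539 to 0.118), with the replicate block (0.0640) and with the 2 genotypes alone (0.102).

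Per kb of exon, the level of Stat5b was 21.3 ± 1.24 CPM in WT and that of Stat5a 11.4 ± 0.27 CPM (SD, n = 3). The ratio of Stat5b to Stat5a on this scale was 1.87 ± 0.15 (SD, n = 3) in WT and lay between 1.51 and 1.97 in the 8 mutant libraries, where the WT libraries ran from 1.70 to 1.98, and the ranges overlapped. The pair's summed level was 31.6 to 33.4 CPM per kb in WT and 38.5 to 42.8 CPM per kb in the mutants. The proteins are close paralogs, and the transcripts share stretches: of the 50-base windows of the longest annotated coding transcripts, 15.8% of those in Stat5a and 11.8% of those in Stat5b occur in the other gene. The authors kept uniquely mapped reads, so reads within such stretches may be missing from both counts.

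Socs2 showed the widest difference of the 8 genes. Its product is an adaptor of a ubiquitin ligase that restrains growth hormone and cytokine receptors, and the gene lies at chr10:95411490-95416857 on the minus strand. In WT the libraries had 2.22, 2.23 and 3.31 CPM of Socs2, from 27, 18 and 37 counts. DF libraries were at 23.3, 21.6 and 20.2 CPM, TF libraries at 37.3, 35.2 and 33.4 CPM, and TFD libraries at 26.1 and 36.9 CPM. The ranges of DF and TF did not overlap, and the TFD libraries lay 1 below the TF range and 1 within it. Socs2 rose 8.32-fold in DF (log2 fold change 3.06, SE 0.19 and adjusted p = 1.79e-06), 13.5-fold in TF (3.76, SE 0.19 and adjusted p = 2.76e-07) and 12.0-fold in TFD (3.59, SE 0.20 and adjusted p = 6.36e-07). Ranked by log2 fold change from the highest, it was gene 28, 24 and 28 of the 12175 tested in DF, TF and TFD. Each of these calls held under all 20 alternative settings, where the log2 fold change stayed between 2.90 and 3.97. Of its 50-base windows, 18.4% also occur in the annotated gene Gm9847.

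Cish, at chr9:107296689-107301961 on the plus strand, was the next in size. CIS binds phosphorylated sites on cytokine receptors that STAT5 would use. Its level was 2.79, 2.85 and 2.24 CPM in WT, 8.26, 6.24 and 5.05 CPM in DF, 6.54, 6.38 and 5.93 CPM in TF, and 8.69 and 12.0 CPM in TFD, from 23 to 34 counts per WT library. All 8 mutant libraries lay above WT, the DF and TF ranges overlapped, and both TFD libraries lay above every library of the other groups. Cish rose 2.49-fold in DF (log2 fold change 1.32, SE 0.24 and adjusted p = 0.000969), 2.40-fold in TF (1.26, SE 0.24 and adjusted p = 0.00162) and 3.93-fold in TFD (1.98, SE 0.25 and adjusted p = 0.000139). These calls, too, held under all 20 alternatives, with log2 fold changes between 1.09 and 2.20. The annotation lists Gm17040 and Gm17041 on the other strand of Cish, over 9.56% and 27.7% of its span, and whether the counting used strand is not given in the sources used here.

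Socs1 went the other way. SOCS1 blocks the catalytic site of Janus kinases, and its gene lies at chr16:10783809-10785536 on the minus strand. WT libraries had 4.27, 3.71 and 4.30 CPM of Socs1. The values were 3.65, 1.87 and 1.88 CPM in DF, 2.26, 2.95 and 3.74 CPM in TF, and 2.19 and 1.78 CPM in TFD, from 19 to 46 counts per mutant library. TF replicate 3 lay just above the lowest WT library, DF replicate 1 just below it, and both TFD libraries well below the WT range. Socs1 fell in TFD by 1.03 on the log2 scale (SE 0.35 and adjusted p = 0.0457). It was not called in DF (log2 fold change −0.73, SE 0.31 and adjusted p = 0.0760) or in TF (−0.46, SE 0.30 and adjusted p = 0.250). The TFD call was lost without any 1 of WT replicate 1, 2 or 3, DF replicate 2, TF replicate 2 or TFD replicate 1 or 2 (adjusted p 0.0507 to 0.171), with library totals (0.0529) and with the replicate block (0.0753), and without DF replicate 1 the DF comparison was called (log2 fold change −1.15, adjusted p = 0.0171).

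Within libraries, the order of these 3 inhibitors differed between WT and mutants. Per kb of exon, Socs1 had the highest level of the 3 in each of the 3 WT libraries, at 2.77 to 3.21 CPM per kb, and Socs2 had the highest in each of the 8 mutant libraries, at 7.48 to 13.8 CPM per kb. In 7 of the mutant libraries Cish came next and Socs1 last, while in TF replicate 3 Socs1, at 2.79 CPM per kb, lay above Cish, at 2.74. The ratio of Socs2 to Socs1 was 0.26 to 0.38 in WT and 3.17 to 10.3 in the mutants. That of Socs2 to Cish was 0.63 to 1.19 in WT, 2.26 to 3.20 in DF, 4.42 to 4.57 in TF and 2.41 to 2.46 in TFD, so TF stood apart from DF and TFD here. Summed over the 3 genes, the level was 5.23 ± 0.29 CPM per kb in the WT libraries, 12.9 ± 2.06 in those of DF and 18.2 ± 0.32 in those of TF (SD, n = 3 each), and 15.3 and 20.6 CPM per kb in the TFD libraries. These ratios were compared with no test.

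**Figure D3:**
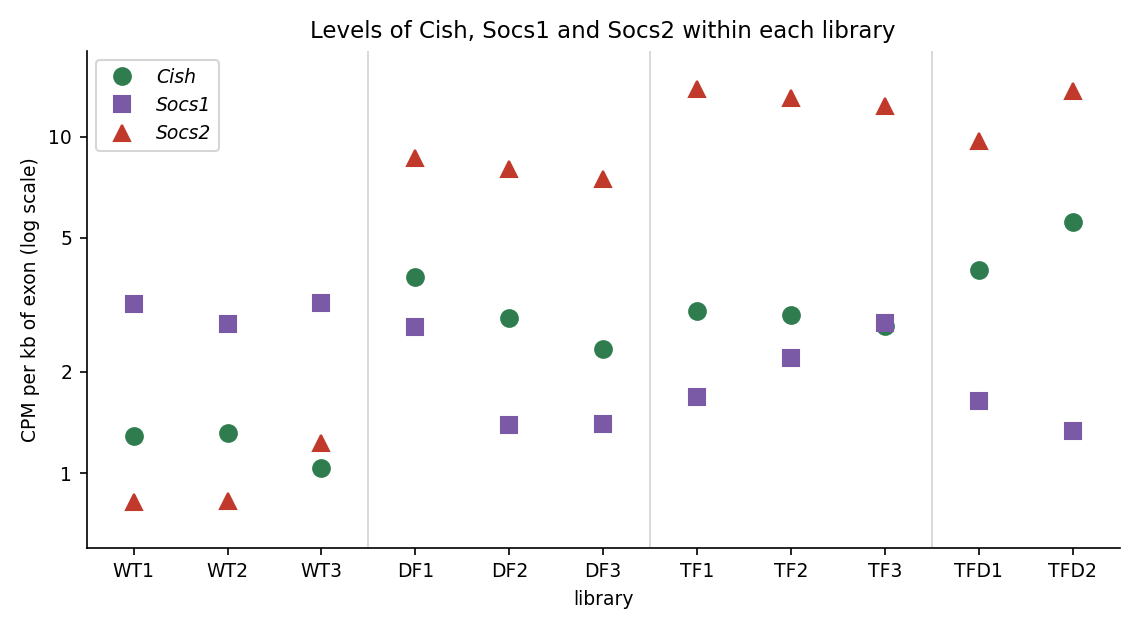
Level per kb of exon (y axis, log scale) of Cish, Socs1 and Socs2 in each library (x axis, ordered by genotype). Socs1 is the top point in the 3 WT libraries, and Socs2 is the top point, at 7.48 CPM per kb or more, in the 8 mutant libraries.

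The PIM kinases moved in opposite directions. Pim1 lies at chr17:29491045-29495459 on the plus strand. It was at 173, 119 and 159 CPM in WT, 234, 191 and 187 CPM in DF, 255, 203 and 239 CPM in TF, and 196 and 260.4 CPM in TFD. All mutant libraries lay above WT, and WT replicate 2 was the lowest library. The rise of Pim1 on the log2 scale was 0.44 in DF (SE 0.16 and adjusted p = 0.0443), 0.63 in TF (SE 0.16 and adjusted p = 0.00887) and 0.60 in TFD (SE 0.17 and adjusted p = 0.0227). The DF call was lost without WT replicate 2 or 3, any 1 of the DF libraries or TF replicate 1 (adjusted p 0.0525 to 0.198), and with library totals (0.115), RLE factors (0.0690), the 5 CPM minimum (0.0666) or factors without the 1000 highest genes (0.0523). The TFD call was lost without WT replicate 2 (adjusted p = 0.0775) or TFD replicate 2 (adjusted p = 0.186). Gm26885 is annotated on the other strand over 20.0% of its span.

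Pim2, at chrX:7878306-7883432 on the plus strand, is transcribed at a far lower level. Its libraries had 6.24, 7.05 and 7.88 CPM in WT, 4.37, 3.35 and 4.26 CPM in DF, 3.64, 4.74 and 5.75 CPM in TF, and 3.31 and 3.92 CPM in TFD. Every mutant library was lower than every WT library, with TF replicate 3 the nearest to WT. Pim2 fell by 0.83 on the log2 scale in DF (SE 0.22 and adjusted p = 0.0116) and by 0.97 in TFD (SE 0.26 and adjusted p = 0.0141), and in TF the log2 fold change was −0.59 (SE 0.22 and adjusted p = 0.0569). Without TF replicate 3 the TF comparison was called (log2 fold change −0.75, adjusted p = 0.0252), while the DF call was lost without DF replicate 2 (adjusted p = 0.0575) and the TFD call without TFD replicate 1 (adjusted p = 0.0992). Since Pim2 is on the X chromosome, the fit was repeated with a term for the 3 libraries with at least 10000 reads of the X-inactivation RNA Xist, which are WT replicate 3, TF replicate 3 and TFD replicate 2. With it Pim2 was called lower in each mutant genotype, TF included (log2 fold change −0.59, adjusted p = 0.0382). Per kb of exon, Pim1 was 19.7 to 32.2 times as high as Pim2 in WT libraries and 48.4 to 81.5 times in mutant libraries. The B cell markers, which fell in the same libraries, are given above, and their part in the fall of Pim2 was not tested.

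Bcl6, at chr16:23965052-23988612 on the minus strand, was called in TF alone. It was at 72.9, 68.3 and 53.8 CPM in WT, 54.7, 50.1 and 64.3 CPM in DF, 52.6, 46.5 and 46.3 CPM in TF, and 59.4 and 54.0 CPM in TFD. WT replicate 3 lay within the DF range and below both TFD libraries, and only the TF libraries were all lower than every WT library. Bcl6 fell in TF by 0.42 on the log2 scale (SE 0.13 and adjusted p = 0.0261), and its log2 fold changes of −0.21 in DF (SE 0.13 and adjusted p = 0.231) and −0.20 in TFD (SE 0.15 and adjusted p = 0.359) were not called. The TF call was lost without WT replicate 1 or 2 or TF replicate 2 or 3 (adjusted p 0.0602 to 0.0888), and without WT replicate 3 Bcl6 was called in DF (log2 fold change −0.37, adjusted p = 0.0459). Late neutrophil markers were also lower in TF, where 4 of the 10 were called lower, against 0 in DF and 2 in TFD. Their sums were 37033 to 47509 CPM in TF, 23240 and 46651 CPM in TFD, 51963 to 65445 CPM in WT and 58828 to 83116 CPM in DF. Their median log2 fold change was −0.73 in TFD, where Bcl6 was not called, and −0.65 in TF, and their part in the Bcl6 difference was not tested. Of the 4 lowest Bcl6 values over the 11 libraries, 3 were those of the TF libraries.

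The element that STAT5 dimers bind is written TTCNNNGAA, where N is any base, and it reads the same on both strands. It was searched in the 250 bases before each annotated start in RefSeq (GRCm38.p6, the mm10 assembly), and the form with 4 bases between TTC and GAA was searched as well. Starts were listed for 7 of the 8 genes, without Socs2. The 9-base element was found before Bcl6 only, and the wider one before none. Of all 32851 windows of this length, 7.02% hold the 9-base element and 5.85% the wider one. Counted by gene, 7.33% of the 9245 tested genes with a listed start hold the 9-base element and 5.59% the wider one. The 9-base element is thus uncommon in such windows, and its absence says only that these letters are not there. The windows of Bcl6 are printed since they hold it, 1 copy before the upstream start (chr16:23988853-23989102, minus strand) and 3 copies before the start within the gene (chr16:23981284-23981533, minus strand). That of Socs1 (chr16:10785537-10785786, minus strand) is shown for contrast as a target that also was lower in a mutant genotype and has no copy. Each runs 5′ to 3′ up to the start, with copies of the element in capitals.
Bcl6 upstream start: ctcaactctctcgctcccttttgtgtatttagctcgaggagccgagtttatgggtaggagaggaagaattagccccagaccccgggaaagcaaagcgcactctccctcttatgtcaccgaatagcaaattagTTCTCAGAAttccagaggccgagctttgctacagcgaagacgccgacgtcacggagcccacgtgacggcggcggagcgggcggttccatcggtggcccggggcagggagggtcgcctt
Bcl6 start within the gene: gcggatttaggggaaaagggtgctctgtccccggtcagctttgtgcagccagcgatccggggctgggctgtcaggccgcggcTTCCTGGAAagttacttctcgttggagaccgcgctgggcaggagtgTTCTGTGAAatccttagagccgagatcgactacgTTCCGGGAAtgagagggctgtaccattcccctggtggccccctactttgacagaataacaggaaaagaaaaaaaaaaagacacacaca
Socs1: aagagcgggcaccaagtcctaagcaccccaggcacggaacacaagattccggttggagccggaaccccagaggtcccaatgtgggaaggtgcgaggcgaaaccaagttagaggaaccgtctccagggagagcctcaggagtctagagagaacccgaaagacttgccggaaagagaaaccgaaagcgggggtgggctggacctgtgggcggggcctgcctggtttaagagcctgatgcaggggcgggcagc
The copy before the upstream Bcl6 start begins 118 bases before it, and those before the other begin 168, 122 and 88 bases before it. The first bases after that other start, within the gene, were not found in any GENCODE transcript of Bcl6. A match in letters is no evidence of binding, which was not measured.

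Differences among the mutants were fewer. In DF versus TF, 1 of the 8 genes was called, where 5.94% of all tested genes were: Socs2 was 1.62-fold lower in DF (log2 fold change −0.70, SE 0.15 and adjusted p = 0.0200). That call was lost without DF replicate 2 (adjusted p = 0.0935), DF replicate 3 (adjusted p = 0.0735) or TF replicate 1 (adjusted p = 0.0600), with log2 fold changes of −0.70 to −0.66. Marker genes differed in the same comparison. All 7 erythroid markers tested were called lower in DF, with sums of 53.1 to 84.0 CPM in DF and 223 to 814 CPM in TF, as were 3 of 6 macrophage markers and 2 of 3 plasma cell markers, while 2 of 5 early granulocyte markers were called higher. Late neutrophil markers had 1 of 10 called higher, with sums of 58828 to 83116 CPM in DF and 37033 to 47509 CPM in TF. Of the 7 monocyte markers 0 were called, with sums of 5623 to 6345 CPM in DF and 5000 to 6445 CPM in TF. The part of these cell types in the Socs2 difference was not tested. Over all genes, this comparison had 203 higher and 520 lower, and 106 and 659 when library totals replaced the TMM factors.

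In DF versus TFD, 0 of the 8 genes were called by edgeR, where 0% of all genes were, although 1727 genes had an unadjusted p under 0.05 and DESeq2 called 258, none of the 8 among them. Cish and Socs2 had the smallest p values of the 8. Cish was lower in DF than in TFD by a log2 fold change of −0.66 (95% interval −1.16 to −0.16, adjusted p = 0.242) and Socs2 by −0.53 (95% interval −0.89 to −0.17, adjusted p = 0.200). Without TFD replicate 1, Socs2 was called in this comparison (log2 fold change −0.76, adjusted p = 0.0434). In TF versus TFD, 0 of the 8 were called, where 0.0164% of all genes were, with 1068 genes at an unadjusted p under 0.05 and none of the 8 called by DESeq2. There Cish had a log2 fold change of −0.71 (95% interval −1.22 to −0.21, adjusted p = 0.374) and Socs2 one of 0.17 (95% interval −0.20 to 0.53, adjusted p = 0.827). For Stat5a, Stat5b, Pim1 and Bcl6, the 95% intervals of all 3 comparisons among mutants lay between −0.55 and 0.50.

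The receptors upstream of STAT5 moved in both directions. Of 16 listed, 15 were tested and Ghr was not analysed here. In DF, 4 were called higher and 7 lower, in TF 3 and 6, and in TFD 3 and 5, where the shares over all tested genes were 21.0% higher and 16.6% lower in DF, 19.0% and 15.6% in TF, and 14.7% and 11.6% in TFD. Called higher in each genotype were Il3ra and Csf2ra, the α chains of the IL-3 and GM-CSF receptors, and Flt3, the targeted receptor. In DF, TF and TFD, Il3ra rose by 1.27, 1.30 and 1.13 on the log2 scale, Csf2ra by 0.76, 0.62 and 0.63, and Flt3 by 0.93, 1.38 and 1.94. Csf2rb, the β chain common to the IL-3 and GM-CSF receptors, was called higher in DF (0.67) and not in TF (0.13, adjusted p = 0.431) or TFD (0.36, adjusted p = 0.0763), and it differed between DF and TF (log2 fold change 0.53, adjusted p = 0.0292). The receptors named for the size of their change all fell, with values on the log2 scale in DF, TF and TFD of −4.94, −3.25 and −3.34 for Il2ra, of −4.86, −2.64 and −3.49 for the lymphoid receptor Il7r, of −4.32, −1.44 and −2.23 for the erythroid receptor Epor, and of −1.87, −1.02 and −1.89 for the eosinophil receptor Il5ra. Il7r and Epor were lower in DF than in TF (log2 fold changes −2.22 and −2.88, adjusted p = 0.0278 and 0.00951). The calls of Il3ra and Il7r against WT were kept in all 20 alternatives, and those of Il2ra in the 19 that gave it a value, since the 5 CPM minimum removed it. Without TF replicate 3, the TF values became −3.92 for Il2ra, −3.67 for Il7r and −2.39 for Epor, and the differences between DF and TF −1.19 for Il7r and −1.93 for Epor. The TFD value of Il2ra was −2.57 without TFD replicate 1 and −4.57 without TFD replicate 2, and that of Flt3 was 2.41 and 1.27. That of Flt3 in DF was lost without WT replicate 2 or 3 or DF replicate 1 (adjusted p up to 0.0936), those of Csf2ra and Il5ra in TFD without TFD replicate 1 (adjusted p = 0.0881 and 0.0623), that of Epor in TF without WT replicate 3 or TF replicate 1 or 2 (adjusted p up to 0.0658), and that of Il5ra in TF without any 1 WT library, DF replicate 3 or TF replicate 1 or 2 (adjusted p up to 0.165). Between DF and TF, the call of Epor was lost without DF replicate 2 (adjusted p = 0.0654), that of Il7r without any 1 DF library or with the 2 genotypes alone (adjusted p up to 0.107), and that of Csf2rb without any 1 DF library or TF replicate 2 or 3, with library totals and with the Xist term (adjusted p up to 0.122). B cell and erythroid markers fell in the same libraries and monocyte markers rose, as given above. The 5 progenitor markers summed to 93.7 to 114 CPM in WT and to 148 to 242 CPM in the mutants, with 3, 2 and 3 of them called higher and 2, 0 and 1 called lower in DF, TF and TFD. The 5 eosinophil, basophil and mast cell markers summed to 367 to 447 CPM in WT and to 279 to 662 CPM in the mutants. Of these markers, 0, 2 and 0 were called lower in DF, TF and TFD, and none was called higher. The part of these cell types in the receptor changes was not tested. Il3ra, Csf2ra and Csf2rb were named after their values were seen.

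Of the 4 Janus kinases, Tyk2 was called higher and Jak1 lower in each genotype, which is 1 of 4 in each direction, near the shares of 14.7% to 21.0% higher and 11.6% to 16.6% lower over all tested genes. Tyk2, which serves interferon and IL-12 family receptors, rose from 70.5 to 73.8 CPM in WT to 110.4 to 153 CPM in the mutants, or by 0.72 in DF, 0.73 in TF and 0.98 in TFD on the log2 scale (SE 0.10 to 0.11). Jak1, which works with receptors of the common γ chain, gp130 and interferons, had log2 fold changes of −0.50, −0.58 and −0.50. Jak2, the kinase of the IL-3, erythropoietin and thrombopoietin receptors, had −0.13, 0.37 and 0.23 and was not called, nor was Jak3, with 0.50, 0.04 and 0.24. The call of Jak1 in TFD was lost without WT replicate 2 or either TFD library (adjusted p up to 0.0944).

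Among 4 other STAT genes, 0 were called higher and 1 lower in each genotype, and among the other 5 SOCS genes 1 was higher in each and 2 were lower in DF, beside 14.7% to 21.0% of all tested genes higher and 11.6% to 16.6% lower. Stat4, the STAT of IL-12 signalling in lymphocytes, had log2 fold changes of −0.77 in DF, −1.15 in TF and −1.30 in TFD, called in each. Of 4 NK cell markers, 4, 4 and 3 were called lower in DF, TF and TFD, and of 7 T cell markers 5, 1 and 4. The part of these cells in the Stat4 changes was not tested. Stat2, which takes part in interferon signalling, was lower in DF than in TF (log2 fold change −0.69, adjusted p = 0.0233) and was not called against WT in any genotype. Stat3, the neighbour of Stat5a, was not called in any genotype, with log2 fold changes of 0.11, −0.17 and −0.14. Of these SOCS genes, Socs6 rose in each genotype, from 29.0 to 34.9 CPM in WT to 44.1 to 58.2 CPM in the mutants (log2 fold changes 0.74, 0.73 and 0.81), Socs4 and Socs5 fell in DF (−0.50 and −0.67) and were not called in TF or TFD, and Socs3 and Socs7 were not called. For Socs3, the feedback inhibitor of STAT3 and G-CSF signals, the spread between DF libraries was wide, 22.5 to 62.3 CPM. The calls of Stat4, Socs4 and Socs6 were kept in all 20 alternatives. That of Socs5 in DF was lost without WT replicate 2 or DF replicate 1 or 3 (adjusted p up to 0.0964), and that of Stat2 between DF and TF without any 1 DF library or TF replicate 3 (adjusted p up to 0.101).

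Of 11 phosphatases and adaptors that restrain the pathway, 3 were higher and 1 lower in DF, 1 was higher in TF and none was called in TFD. Over all tested genes, 21.0% were higher and 16.6% lower in DF, with 19.0% and 15.6% in TF and 14.7% and 11.6% in TFD. Ptpn6, the phosphatase SHP-1, rose in DF and TF (log2 fold changes 0.62 and 0.53) and had 0.34 in TFD (adjusted p = 0.0885). In DF, Ptpn1 (0.54) and the JAK2-binding adaptor Sh2b3 (0.39) rose and the ubiquitin ligase Cblb fell (−0.70). The call of Sh2b3 was lost without WT replicate 2 or 3 or DF replicate 1 or 3 and in 4 other alternatives (adjusted p up to 0.184), and that of Cblb without WT replicate 2 or 3 or DF replicate 1 or 2 (adjusted p up to 0.0969).

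Among 12 other genes known as STAT5 targets, the calls again went both ways, with 2 higher and 5 lower in DF, 2 and 5 in TF, and 3 and 6 in TFD, beside shares over all tested genes of 21.0% and 16.6%, 19.0% and 15.6%, and 14.7% and 11.6%. Bcl2, which protects from apoptosis, rose by 0.66, 1.15 and 1.04 on the log2 scale in DF, TF and TFD, and it was lower in DF than in TF (log2 fold change −0.49, adjusted p = 0.0299), as was Socs2. Il2ra, given above, and Tfrc, the transferrin receptor (−1.60, −0.89 and −1.38), were lower in each genotype, and Ccnd1, which encodes cyclin D1, was lower in DF (−2.89) and TFD (−1.53) but not called in TF (0.14, adjusted p = 0.819), with a called difference between DF and TF (log2 fold change −3.03, adjusted p = 0.00485). Without DF replicate 1, the values of Ccnd1 were −3.48 in DF versus WT and −3.62 in DF versus TF, the latter was −2.39 without TF replicate 3, and the TFD value was −2.19 without TFD replicate 2. The TF value, not called in any of the 20 alternatives, was −0.50 without TF replicate 3, −0.06 without WT replicate 3 and −0.04 with the Xist term, and up to 0.44 without TF replicate 2. Of 2 BCL6 corepressors, Ncor1 fell in DF and TF (−0.32 and −0.45) and Bcor was not called. The calls of Bcl2, of Tfrc in DF and TFD, of Ccnd1 in DF and of Ncor1 in TF were kept in all 20 alternatives. That of Tfrc in TF was lost without WT replicate 2 or 3 or TF replicate 1 or 2 (adjusted p up to 0.0780), and that of Ccnd1 in TFD without WT replicate 1 or 2, DF replicate 2 or TFD replicate 1, with DESeq2 and with the replicate block (adjusted p up to 0.272). The call of Ncor1 in DF was lost without WT replicate 1 or 2, DF replicate 1 or 2 or any 1 TF library, and with the replicate block (adjusted p up to 0.138), and that of Bcl2 between DF and TF without any 1 DF library or TF replicate 1 or 2 (adjusted p up to 0.107).

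Over the pathway lists the median log2 fold changes in DF, TF and TFD were −0.91, −0.68 and −0.31 for the receptors, 0.19, 0.21 and 0.23 for the Janus kinases, −0.11, −0.04 and 0.00 for the STAT genes, −0.08, −0.17 and −0.31 for the SOCS genes, −0.01, −0.02 and 0.00 for the phosphatases and adaptors, −0.18, −0.13 and −0.27 for the other targets, and −0.21, −0.21 and −0.15 for the corepressors. Against WT, 29 of the 54 listed and targeted genes were called in DF, 22 in TF and 20 in TFD, where 37.6%, 34.6% and 26.3% of all tested genes were, and 18, 12 and 9 of these were kept in all 20 alternatives.

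**Figure D4:**
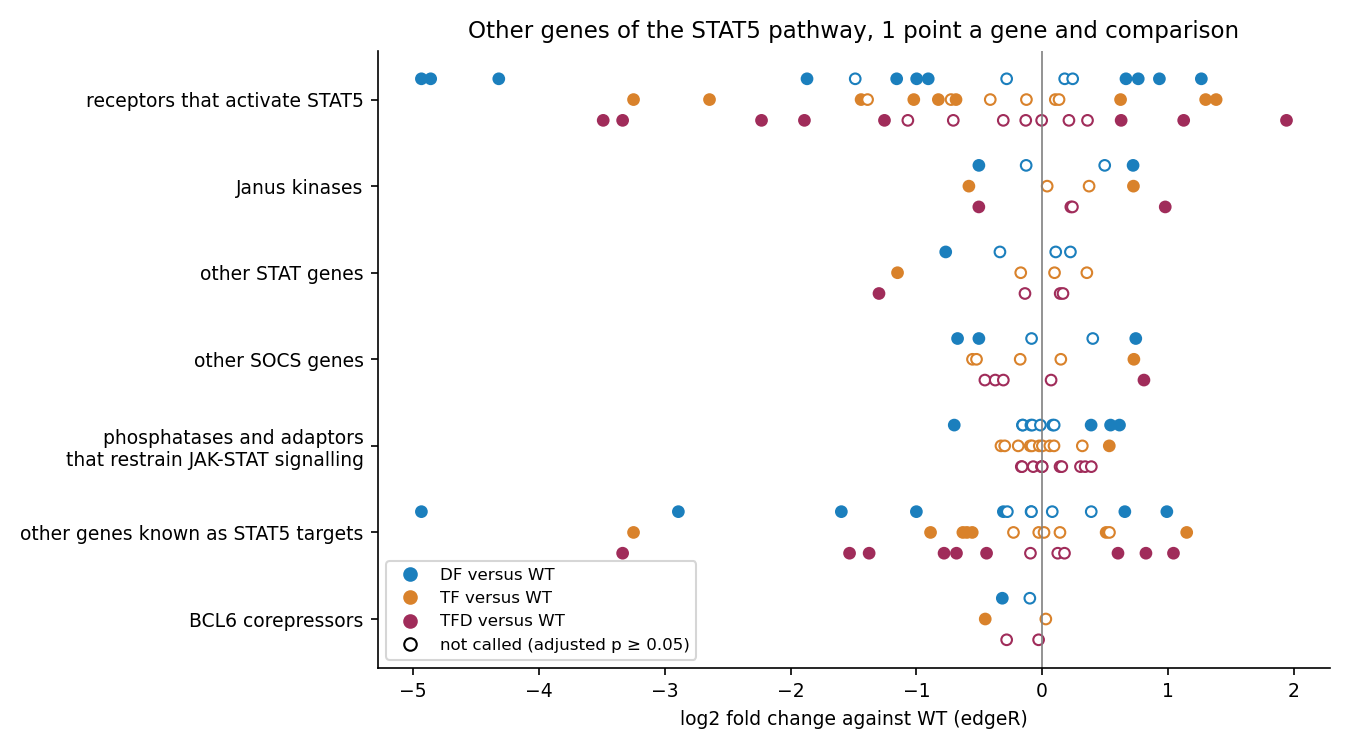
Log2 fold change against WT (x axis) of each tested gene of 7 pathway lists (y axis) in DF, TF and TFD, with open points for genes not called. Receptors spread from −4.94 to 1.94, while Janus kinases, STAT and SOCS genes stayed between −1.30 and 0.98.

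The genes whose log2 CPM followed each of the 8 most closely over the 11 libraries were ranked by Pearson's r, as a description. The libraries form a WT and a mutant group that all these genes share. Socs2 was followed by Tmem55b (r = 0.994), Dusp22 (0.994) and Cp (0.993), and Cish by the Janus kinase gene Tyk2 (0.979), Deptor (0.975) and Fez2 (0.973). The closest gene was Kif5a for Stat5a (0.976), Abca4 for Stat5b (0.979), Gcdh for Socs1 (0.944), Krt80 for Pim1 (0.955), Ptprcap for Pim2 (0.959) and Zfp276 for Bcl6 (0.963).

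**Figure D5:**
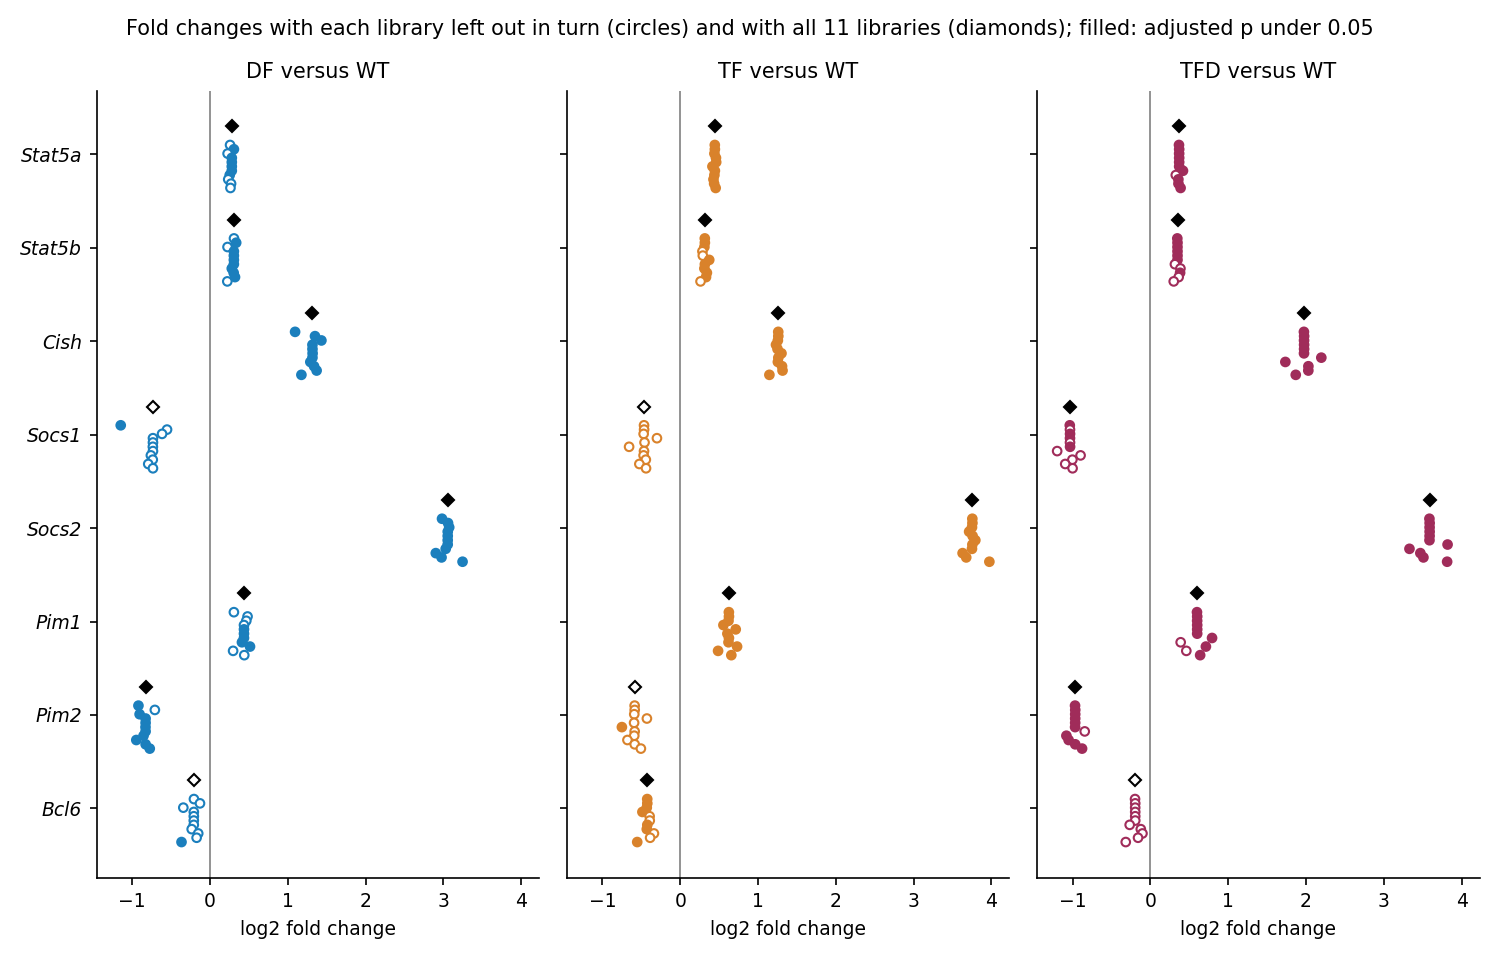
Log2 fold change against WT (x axis) of the 8 genes (y axis) with each of the 11 libraries left out in turn (circles) and with all libraries (diamonds), filled where the adjusted p was under 0.05. The circles of Socs2 and Cish are all filled, and those of each of the other 6 genes mix filled and open ones in at least 1 comparison.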

How the data were processed

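RNA of 11 BM libraries (3 WT, 3 DF, 3 TF and 2 TFD) was analysed, of 12 in the labels. The authors made stranded total RNA libraries with globin removal, mapped the reads with STAR to mm10, kept uniquely mapped reads, counted them per refGene gene with featureCounts and removed low genes. Tool versions, and whether counting used strand, are not given in the sources used here. The deposited table holds raw read counts, log2 CPM values and a gene length that the authors' counting gave for each gene. The deposited log2 CPM equalled edgeR's cpm with a prior count of 0.25 within 5e-09. Levels per kb divide CPM by that length.

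Counts were fitted with edgeR 4.0.16 (R 4.3.3, limma 3.58.1), with TMM factors, 1 mean per genotype over all libraries and the quasi-likelihood F test. A gene was kept above 0.5 CPM in more than 3 libraries (12175 of 12199, 24 removed). P values are two-sided and Benjamini-Hochberg adjusted over all genes tested, and a gene was called under 0.05. SEs were derived from the F statistics. The fit was tested on simulated data. Library totals were 8274153 to 15900904 counts, and libraries of 1 genotype differed by more than counting error.

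Alternatives were DESeq2 1.42.0, library totals, RLE factors, no filter, a 5 CPM minimum, factors without the 1000 highest genes, the 2 genotypes alone, a replicate block, a term marking libraries of 10000 Xist reads or more, and each library left out. The study's own test was DESeq2. The 8 genes, the lists, the markers and the Xist term were chosen with earlier results of these data known. All genes of the short lists could be named, in longer lists the 4 with the largest mean absolute log2 fold change against WT among those called, and the 3 genes most correlated with each of the 8. Some listed genes are not reported here. Promoters are from RefSeq (7 of the 8 genes matched by symbol) and were searched with Python 3.11.15, and figures drawn with matplotlib 3.10.9.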

Additional observations from a re-analysis of the deposited data

Results flagged for a closer look

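The effects of the DF and TF genotypes, both set against the same WT libraries, differed for 1 of the 8 genes by edgeR's test of DF versus TF itself. Socs2 had a log2 fold change of −0.70 between them, and the 3 DF libraries were all below the 3 TF libraries. The same test called 7 of 54 pathway and targeted genes, beside 5.94% of all genes tested. Csf2rb (0.53) and Ptpn1 (0.45) were higher in DF, while Il7r (−2.22), Epor (−2.88), Stat2 (−0.69), Bcl2 (−0.49) and Ccnd1 (−3.03) were lower. The call of Ccnd1 was kept in all 20 alternatives, and each of the other 6 was lost in at least 1 that left out a library, with adjusted p values up to 0.122. That of Ptpn1 was lost without DF replicate 1 or 2 or TF replicate 1 or 3 and with library totals (adjusted p up to 0.0985), and that of Csf2rb was lost with library totals as well (adjusted p = 0.0680). All 7 erythroid markers tested were also called lower in DF, and the part of cell types in these differences was not tested. No DF library had high Xist counts, while TF replicate 3 did. No group held 4 libraries, so single libraries were not tested for standing apart from their group. The 2 TFD libraries differed more from each other than any other pair of 1 genotype.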

How the results depend on the processing

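For the 8 genes in 6 comparisons, 954 values were recomputed over 20 settings. Of these, 892 stayed on their side of the threshold, 55 lost a call, 7 gained one, and 0 values called in either fit changed sign. Among the 892, 15 values that were called in neither fit changed sign. The calls of Socs2 and Cish against WT and those of Stat5a and Pim1 in TF were never lost. With library totals, 3 of the 8 genes were called in DF versus WT in place of 6. Leaving out 1 library gave 3 to 6 calls in DF versus WT (3 without DF replicate 3), 4 to 6 in TF versus WT, 3 to 7 in TFD versus WT (4 without WT replicate 2 or TFD replicate 1, 3 without TFD replicate 2), 0 to 1 in DF versus TF (0 without DF replicate 2, DF replicate 3 or TF replicate 1) and 0 to 1 in DF versus TFD (1 without TFD replicate 1). In such fits of TFD, the lone library is assumed to vary like the other groups. The causes of these changes were not tested. With the replicate number as a block, TFD versus WT had 5 calls, without Stat5b (log2 fold change 0.33, adjusted p = 0.0640) and Socs1 (−1.02, adjusted p = 0.0753), and the other comparisons kept their counts. The labels give no shared origin to same-numbered libraries. Their deviations from the genotype means correlated at −0.30 to 0.25 over 15 pairs, 3 of them above 0.1. Deviations within a group of 2 or 3 libraries are tied to each other, so these values cannot decide whether the numbers pair samples. Pim2 was called in TF with RLE factors (adjusted p = 0.0488) and with the 5 CPM minimum (adjusted p = 0.0469), which drops Socs1. Over all genes, DF versus TFD had 0 calls by edgeR, 258 by DESeq2, 135 with the 2 genotypes alone and 42 with the block, and TF versus TFD had 2, against 131 by DESeq2, 22 with the Xist term and 0 with the 2 genotypes alone. Leaving out 1 library gave 0 to 384 calls in DF versus TFD (384 without TFD replicate 1, 229 without TF replicate 3), 2 to 76 in TF versus TFD (76 without TFD replicate 1, 26 without TF replicate 2) and 169 to 933 in DF versus TF against 723 (169 without DF replicate 2, 252 without DF replicate 3, 341 without TF replicate 3, 385 without DF replicate 1). For 324 results of pathway and targeted genes, 6230 of 6456 values stayed on their side, 140 lost a call, 86 gained one, 0 called values changed sign, and 216 of the 6230 changed sign without a call. Depth was low for Socs2 and Cish in WT (18 to 37 counts per library) and for Socs1 throughout (19 to 52).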
